A study of Mus musculus with 24 samples.

Results

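The proteasome subunit genes are described here in mouse liver after furan and after formalin fixation. They were taken as the genes of the deposited count table whose symbol is Psm followed by a letter from a to g and a digit, which gave 50 of 24015 genes. By role they were 8 genes of the alpha ring and 4 structural genes of the beta ring of the 20S core, 3 constitutive catalytic genes, 4 catalytic genes of the immunoproteasome and thymoproteasome, 6 ATPases and 11 other subunits of the 19S cap, 3 chaperones of 19S assembly, 5 activators and inhibitors, and 4 chaperones of 20S assembly. The rule also took in 2 symbols that do not stand alone as subunits: Psmc3ip, a partner protein of meiotic recombination, and Psme2b, a near-copy of Psme2.

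The samples were livers of female B6C3F1 mice bought at 5 to 6 weeks of age. Furan animals received 8 mg of furan per kg body weight per day in corn oil by gavage for 21 days, control animals received the corn oil alone, and all were killed 4 h after the last dose. Each liver was divided into a fresh-frozen piece and pieces that were formalin-fixed and paraffin-embedded (FFPE) after 18 h or 3 wk in formalin. There were 3 furan and 3 control fresh-frozen libraries, and 4 furan and 4 control libraries for each FFPE time, each from a separate animal. Furan is a liver toxicant that cytochrome P450 turns into a reactive dialdehyde, which binds cysteine and lysine side chains of proteins. The comparisons ask how the genes differed with furan in each kind of piece, and how they differed between the kinds of piece.

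The 26S proteasome degrades proteins that carry ubiquitin chains. Its 20S core is a barrel of alpha and beta rings, with the active sites on the inner face of the beta rings, and its 19S cap binds, unfolds and feeds in the substrate. The constitutive active sites are those of Psmb6 (caspase-like), Psmb7 (trypsin-like) and Psmb5 (chymotrypsin-like), and interferon-induced Psmb9, Psmb10 and Psmb8 take their places in the immunoproteasome, which favours peptides for MHC class I. Dedicated chaperones build each part, and activators such as PA28 and PA200 can cap the core in place of 19S. When the proteasome is inhibited, the transcription factor NRF1 (Nfe2l1) raises many of these genes together, and oxidants and electrophiles can raise some of them through NRF2 (Nfe2l2); both act at antioxidant response elements.

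The promoters below belong to the 4 genes that passed a furan test (Psmd5, Psme3, Psme1 and Psmb9) and, for contrast, to the catalytic genes whose windows hold the core of an antioxidant response element (Psmb5 and Psmb6). Each is the 250 bases before the annotated start, from RefSeq on GRCm38.p6 and on the gene's own strand. The windows were chr2:34870963-34871212 (minus) for Psmd5, chr11:101315963-101316212 (plus) for Psme3, chr14:55578244-55578493 (plus) for Psme1, chr17:34187331-34187580 (minus) for Psmb9, chr14:54617996-54618245 (minus) for Psmb5 and chr11:70525107-70525356 (plus) for Psmb6. Capitals mark TGACNNNGC, the antioxidant response element core, TTCNNNGAA, the core of sites for STAT factors, and an interferon-stimulated response element core (GAAA, any 2 bases, GAAA), each searched on both strands. No match overlaps a match of another of these motifs in the windows shown.

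Psmd5: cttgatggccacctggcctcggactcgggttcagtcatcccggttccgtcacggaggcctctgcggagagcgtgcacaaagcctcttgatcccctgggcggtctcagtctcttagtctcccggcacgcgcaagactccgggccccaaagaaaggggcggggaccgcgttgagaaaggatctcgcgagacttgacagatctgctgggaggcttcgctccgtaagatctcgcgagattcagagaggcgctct
Psme3: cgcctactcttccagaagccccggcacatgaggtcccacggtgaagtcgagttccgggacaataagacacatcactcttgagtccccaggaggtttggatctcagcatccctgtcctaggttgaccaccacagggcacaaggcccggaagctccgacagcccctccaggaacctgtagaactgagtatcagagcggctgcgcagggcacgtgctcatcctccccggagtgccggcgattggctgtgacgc
Psme1: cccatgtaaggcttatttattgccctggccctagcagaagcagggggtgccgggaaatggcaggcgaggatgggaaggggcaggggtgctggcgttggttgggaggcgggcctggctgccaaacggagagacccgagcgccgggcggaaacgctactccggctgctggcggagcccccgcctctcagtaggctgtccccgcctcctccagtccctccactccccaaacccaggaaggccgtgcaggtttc
Psmb9: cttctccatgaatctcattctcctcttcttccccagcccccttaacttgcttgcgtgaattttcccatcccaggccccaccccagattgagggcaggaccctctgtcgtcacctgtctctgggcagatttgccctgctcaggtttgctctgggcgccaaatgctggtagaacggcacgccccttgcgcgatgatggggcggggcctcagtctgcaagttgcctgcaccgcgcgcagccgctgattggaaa
Psmb5: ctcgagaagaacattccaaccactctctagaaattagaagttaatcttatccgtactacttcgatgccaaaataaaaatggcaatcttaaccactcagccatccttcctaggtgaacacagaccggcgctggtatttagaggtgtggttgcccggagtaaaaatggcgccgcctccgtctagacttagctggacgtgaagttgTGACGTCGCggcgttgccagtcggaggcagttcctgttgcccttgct
Psmb6: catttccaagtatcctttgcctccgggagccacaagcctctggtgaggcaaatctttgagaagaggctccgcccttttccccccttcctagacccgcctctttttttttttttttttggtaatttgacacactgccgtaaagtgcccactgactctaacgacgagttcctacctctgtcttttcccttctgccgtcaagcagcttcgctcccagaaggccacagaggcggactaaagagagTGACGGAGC

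RefSeq windows were matched for 42 of the 50 genes, 45 windows in all. TGACNNNGC was present in 11.1% of them, those of Psmb5, Psmb6, Psmc6, Psmd12 and Psmd9, against 10.2% of 32851 windows of all genes. TTCNNNGAA was present in 4.44% (Psmb8 and Psmg1), against 7.02% of all windows. The interferon-stimulated core was present in 6.67% (Psmb3, Psmd4 and Psmd9), against 2.98%. The GC box GGGCGG was present in 51.1% of the windows, against 32.7% of all, and CCAAT in 33.3%, against 33.8%; these short words were searched on both strands and are not capitalised above. None of the first 3 motifs was found in the windows of the 4 genes that passed a furan test. Each of these motifs is also absent from most windows of all genes, so its absence from 4 windows is not informative.

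Fresh-frozen libraries held 33101755 to 58048387 counts, FFPE 18 h libraries 16269854 to 22494012 and FFPE 3 wk libraries 3666173 to 11780691. The proteasome genes took 0.216% to 0.251% of the counts of fresh-frozen libraries, 0.209% to 0.360% of FFPE 18 h libraries and 0.232% to 0.305% of FFPE 3 wk libraries. The ribosomal RNA gene Rn45s took 0.129% to 0.520%, 6.42% to 37.3% and 4.85% to 13.2% of the counts of those 3 kinds of piece, with the highest share in the FFPE 18 h library of control animal 06. Hepatocyte genes (Alb, Apoa1, Ttr, Tat and Cps1) summed to 127660 to 137700 CPM in fresh-frozen furan livers and 127060 to 130820 CPM in fresh-frozen control livers. The skeletal muscle gene Acta1 stood at 277 CPM in the FFPE 3 wk library of furan animal 42, and at 160 and 80.3 CPM in those of control animals 03 and 06, against at most 1.15 CPM in the other FFPE 3 wk libraries. Levels here are CPM, gene counts scaled to a common library size, with sizes adjusted by trimmed mean of M-values (TMM) over the 22 libraries.

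Per length, the proteasome genes of fresh-frozen liver spanned a wide range of levels. CPM was divided by the length in kilobases of the gene's longest curated transcript. The constitutive catalytic genes Psmb7 and Psmb6 were among the highest, with 59.4 and 55.8 CPM per kilobase in furan livers and 65.7 and 51.2 in control livers. Psma6 of the alpha ring had 59.7 CPM per kilobase in furan livers and 64.0 in control livers, and Psmd2, a scaffold of the cap, had 60.6 and 58.1. The third constitutive catalytic gene, Psmb5, was listed far lower, at 12.2 CPM per kilobase in furan livers and 11.2 in control livers. Of its transcript, 57.1% of the 50-nt words occur in another annotated gene (Gm3375 holds most), so reads of Psmb5 could have been assigned elsewhere or left uncounted, and its level is uncertain. The immunoproteasome genes were lower than Psmb7 and Psmb6: Psmb10 had 13 CPM per kilobase in furan livers and 15.2 in control livers, Psmb8 had 9.22 and 11.1, and Psmb9 had 5.29 and 6.07.

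By role, the median over genes was 55.8 CPM per kilobase in furan livers and 51.2 in control livers for the constitutive catalytic genes, 41.9 and 36.8 for the 19S ATPases, and 41.9 and 40.4 for the 19S non-ATPase subunits. Chaperones were lower, with 8.46 CPM per kilobase in furan livers and 7.41 in control livers for those of 19S assembly and 6.79 and 7.18 for those of 20S assembly. Psma8, the alpha subunit of testis, had 0.488 CPM per kilobase in furan livers and 0.463 in control livers. Psmb11, the catalytic subunit of thymic epithelium, had 3 counts in all 22 libraries together and was tested in no comparison.

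**Figure D1:**
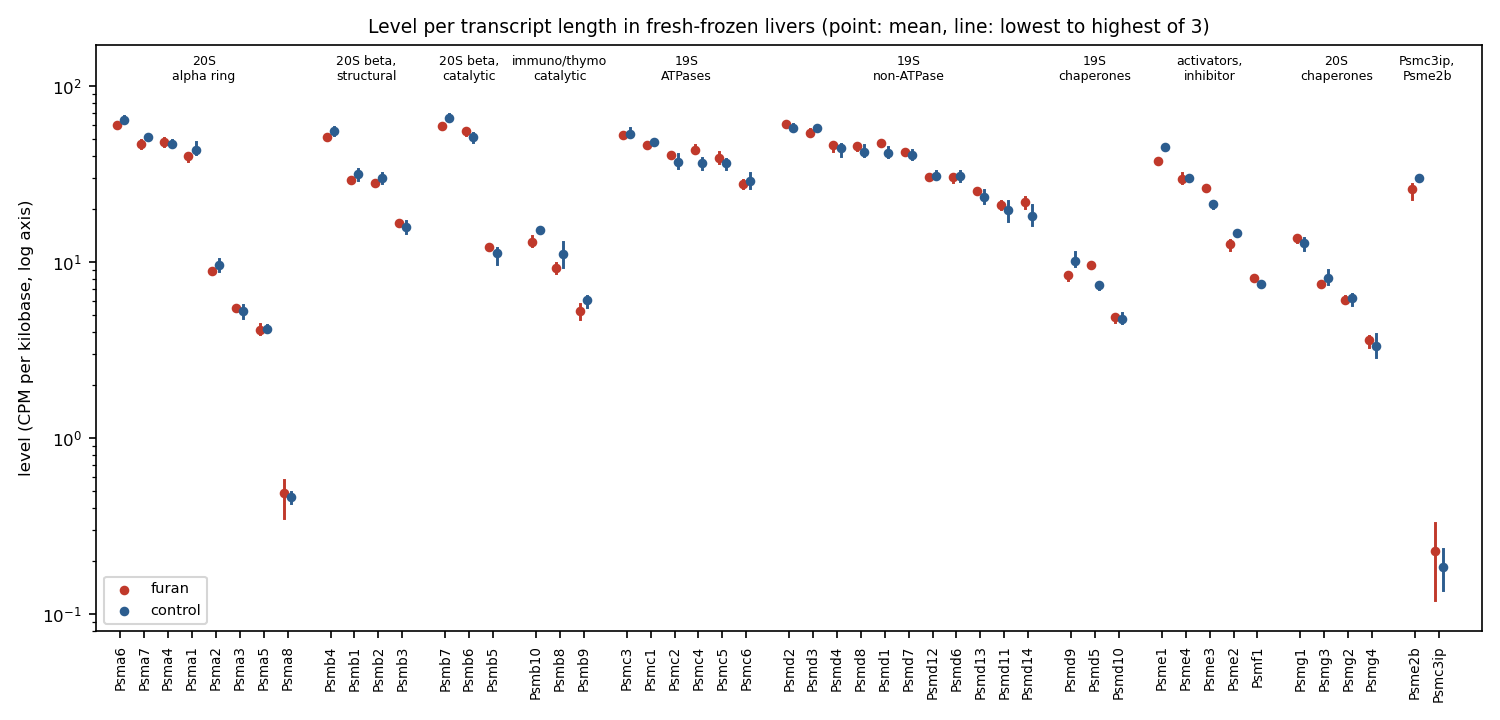
Level per transcript length (CPM per kilobase, log axis) of each proteasome gene in fresh-frozen livers, furan left of control; points are means of 3 libraries and lines run from the lowest to the highest. Most core and cap subunits lie between 15 and 70 CPM per kilobase, with the immunoproteasome genes and the assembly chaperones below them; Psmb11 (3 counts in all libraries) is not drawn.

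In fresh-frozen livers most proteasome genes did not pass the test for furan against control. Of 49 tested genes, 2 rose (Psmd5 and Psme3) and 1 fell (Psme1), which is 6.12%, where 15.7% of all 13794 tested genes were called (8.21% rose and 7.47% fell). At an unadjusted p under 0.05 there were 9 of the 49, against 32% of all genes. The median log2 fold change was 0.00 over the proteasome genes and -0.01 over all genes, and the median absolute log2 fold change was 0.11 against 0.19. The direction was split, with 25 values above 0 and 24 below (48.5% of all genes were above 0), in a range of -0.25 to 0.38. With libraries scaled by total counts alone, where the median of all genes was 0.06, 5 genes rose and 0 fell. In 1 model of all 6 groups 0 passed. The summed level of the 50 genes was 2311, 2347 and 2347 CPM in furan livers, against 2444, 2251 and 2230 CPM in control livers, and the ranges overlapped.

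**Figure D2:**
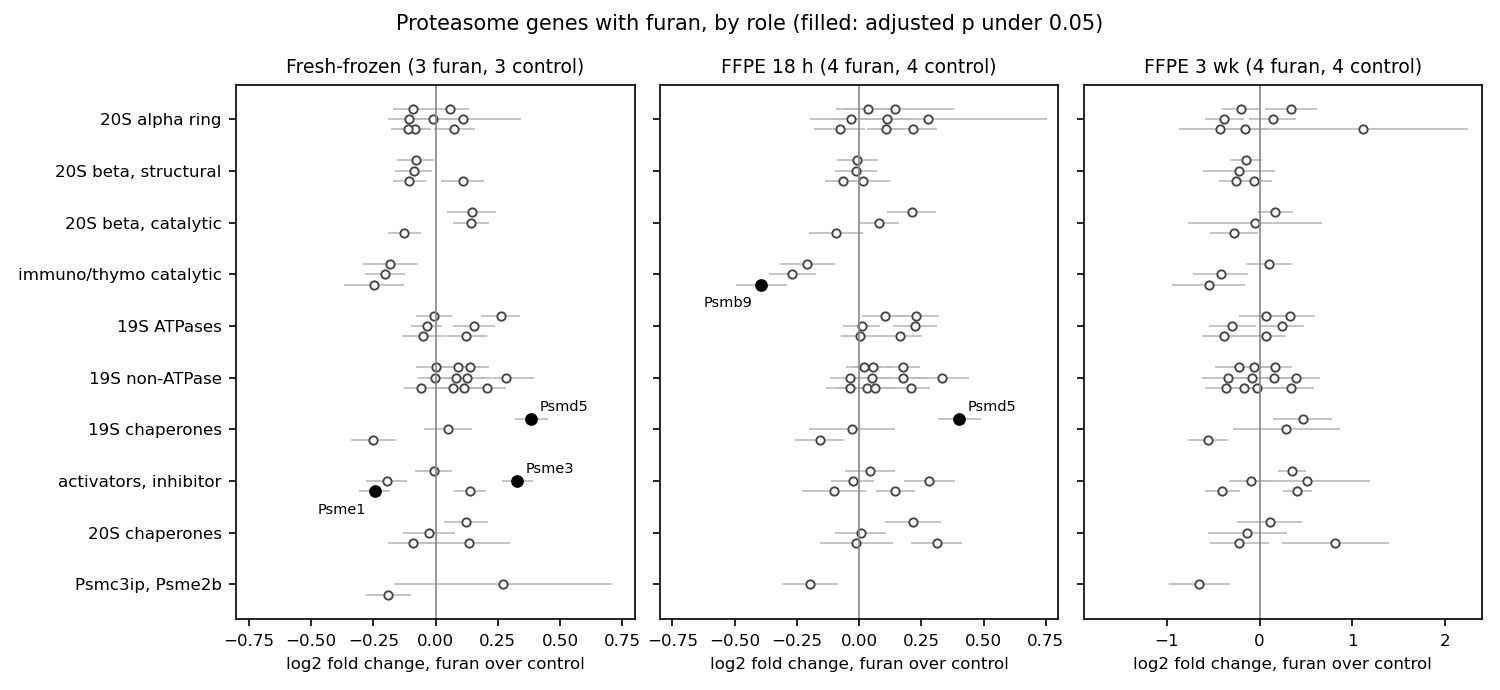
Log2 fold change, furan over control, of each tested proteasome gene (point, with its standard error as a line) by role and kind of piece; filled points have an adjusted p under 0.05. Psmd5 and Psme3 are filled to the right and Psme1 to the left in fresh-frozen pieces, Psmd5 and Psmb9 in FFPE 18 h pieces and none in FFPE 3 wk pieces, where the axis is wider.

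Psmd5, which encodes a chaperone that holds base ATPases during assembly of the 19S cap, gave the largest rise. It had 41.1, 43 and 41.8 CPM in furan livers, against 33.3, 31.0 and 33.4 CPM in control livers, and averaged 42 ± 0.927 CPM in furan livers and 32.6 ± 1.39 CPM in control livers (SD, n = 3 each). Every furan library lay above every control library. The log2 fold change was 0.38 ± 0.07 (SE; edgeR quasi-likelihood test, adjusted p = 0.0104), and the call held in each fit that left out 1 library. The other 19S chaperones did not pass: Psmd9 had a log2 fold change of -0.25 (adjusted p = 0.0982), with no overlap between groups, and Psmd10 of 0.05 (adjusted p = 0.757).

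The activators moved in both directions. Psme3, which encodes the nuclear activator PA28 gamma, had 70.0, 70.6 and 70.2 CPM in furan livers, against 59.0, 54.2 and 56.8 CPM in control livers. All furan values were higher, with a log2 fold change of 0.33 ± 0.06 (adjusted p = 0.0138). Psme1, which encodes the interferon-induced PA28 alpha, had 41.8, 40.7 and 43.4 CPM in furan livers, against 50.6, 51.5 and 48.8 CPM in control livers. All furan values were lower, with a log2 fold change of -0.24 ± 0.06 (adjusted p = 0.0346), but the call was lost in each of the 6 fits that left out 1 library (adjusted p 0.0519 to 0.123). Its partner Psme2, PA28 beta, had 11.2, 12.8 and 12.5 CPM in furan livers, against 14.3, 14.5 and 13.5 CPM in control livers, a log2 fold change of -0.20 that did not pass (adjusted p = 0.148). Psme2 shares 59.3% of its 50-nt words with other genes, Psme2b among them, so its counts are uncertain. Psme1 shares 14.1% of its words with other genes, so its counts are less certain too. Psme4, the PA200 activator, had a log2 fold change of -0.01 (adjusted p = 0.961), and Psmf1, the inhibitor PI31, of 0.14 (adjusted p = 0.188).

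None of the catalytic genes passed in fresh-frozen livers. Of the constitutive 3, Psmb5 had 11.0, 11.0 and 10.9 CPM in furan livers, against 10.9, 10.6 and 8.70 CPM in control livers (log2 fold change 0.14, adjusted p = 0.367). Psmb6 had 45.7, 42 and 45.8 CPM in furan livers, against 43, 41 and 38.5 CPM in control livers (0.14, adjusted p = 0.222). Psmb7 had 68.4, 70.6 and 67.8 CPM in furan livers, against 80.3, 73.1 and 75.1 CPM in control livers (-0.13, adjusted p = 0.229). The groups overlapped for Psmb6 and not for Psmb5 or Psmb7, which lay on opposite sides. For Psmb5 they all but met, with a lowest furan value of 10.881 CPM and a highest control value of 10.861 CPM. Of Psmb7, 82.1% of the 50-nt words in the last 300 nt of the transcript also lie in Nek6, so reads there cannot be placed with certainty.

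The 3 immunoproteasome genes had negative values. Psmb8 had 14.1, 14.9 and 16 CPM in furan livers, against 17.9, 21.0 and 15.2 CPM in control livers, with a log2 fold change of -0.25 ± 0.12 (adjusted p = 0.199). Psmb9 had 6.42, 7.22 and 7.83 CPM in furan livers, against 8.52, 8.62 and 7.48 CPM in control livers, with -0.18 ± 0.11 (adjusted p = 0.302). Psmb10 had 16.1, 16.6 and 18.5 CPM in furan livers, against 19.5, 20.6 and 19.6 CPM in control livers, with -0.20 ± 0.08 (adjusted p = 0.123). The groups separated for Psmb10 alone among these 3, and the highest Psmb8 value was that of control animal 04. That library also stood apart in macrophage genes (Clec4f, Cd68, Csf1r, Lyz2, Marco and Emr1), which summed to 175, 214 and 203 CPM in furan livers, against 188, 447 and 168 CPM in control livers, and in leukocyte genes (Ptprc, Cd74, H2-Ab1 and Itgax), with 72.0, 76.2 and 76.6 CPM in furan livers, against 61.3, 164 and 61.1 CPM in control livers. None of the 6 macrophage and 4 leukocyte genes passed the furan test. Without control animal 04 the log2 fold changes were -0.13 for Psmb8, -0.15 for Psmb9 and -0.19 for Psmb10, and none passed. In whole liver, fewer cells of a type and less RNA per cell cannot be told apart.

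The remaining core and cap genes had log2 fold changes between -0.11 and 0.28, and none passed. In the alpha ring 3 of 8 values were above 0 (median -0.05, range -0.11 to 0.11), and of the 4 structural beta genes 1 was above 0 (median -0.08). Among the 19S ATPases 3 of 6 were above 0 (median 0.06). The highest was Psmc4, with 60.8, 60.7 and 66.2 CPM in furan livers, against 56.2, 53.8 and 48.5 CPM in control livers (log2 fold change 0.26, adjusted p = 0.0572); the groups did not overlap. Of the 11 other cap subunits 9 were above 0 (median 0.09), led by Psmd14, the deubiquitinase that cuts chains off the substrate (0.28, adjusted p = 0.120), and Psmd1, a large scaffold (0.21, adjusted p = 0.0961). The 20S chaperones Psmg1 to Psmg4 had a median of 0.05 and no gene passed. Over all 49 genes, 6 lay wholly above and 9 wholly below the control range, where 17.4% and 20.3% of all genes did.

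In FFPE 18 h livers 1 of 48 tested proteasome genes rose with furan and 1 fell, which is 4.17%, where 8.39% of 12832 genes were called (3.92% rose and 4.47% fell). At an unadjusted p under 0.05 there were 11, against 23.4% of all genes. The median log2 fold change was 0.04, against -0.01 for all genes, and 31 values were above 0 (48.1% of all genes). Psmd5 was again the gene that rose, with 35.0, 32.9, 34.4 and 33.0 CPM in furan livers, against 26.1, 27.9, 23.8 and 25.1 CPM in control livers. The groups did not overlap, and the log2 fold change was 0.40 ± 0.08 (adjusted p = 0.0116). Psmb9, the immunoproteasome counterpart of Psmb6, was the gene that fell, with 22.5, 26.3, 30.3 and 25.6 CPM in furan livers, against 33.7, 36.4, 36.5 and 31.7 CPM in control livers. All furan values were lower, with a log2 fold change of -0.39 ± 0.10 (adjusted p = 0.0316). The Psmb9 call was lost without furan animal 41, 42 or 44 and without control animal 02, 03 or 04 (-0.36 and adjusted p = 0.0922 without control animal 04), and 12.5% of its 50-nt words are shared, with Tap1 next to it. With libraries scaled by total counts alone, or in 1 model of all 6 groups, 0 genes passed.

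Macrophage genes summed to 212 to 265 CPM in FFPE 18 h furan livers and 239 to 472 CPM in control livers, with the highest again in control animal 04, and their part in the Psmb9 result was not tested. The other immunoproteasome genes did not pass. Psmb8 had 47.1, 55.2, 52.3 and 57.2 CPM in furan livers, against 62.3, 62.0, 70.7 and 50.5 CPM in control livers (log2 fold change -0.21, adjusted p = 0.280). Psmb10 had 56.1, 68.2, 66.6 and 61.4 CPM in furan livers, against 67.1, 86.5, 74.2 and 78.2 CPM in control livers (-0.27, adjusted p = 0.106). Both overlapped between groups. Neither did the constitutive catalytic genes pass: the log2 fold change was 0.21 for Psmb5 (24.0, 20.6, 23.2 and 22.6 CPM in furan livers, against 18.8, 21.2, 19.8 and 18.7 CPM in control livers; adjusted p = 0.221), 0.08 for Psmb6 (168, 171, 163 and 172 against 169, 166, 164 and 142 CPM; adjusted p = 0.586) and -0.09 for Psmb7 (94.5, 75.6, 79.7 and 82.5 against 94.7, 97.6, 91.8 and 71.9 CPM; adjusted p = 0.664). Psme3 had 62.0, 55.9, 64.3 and 66.2 CPM in furan livers, against 57.8, 54.0, 51.3 and 42.2 CPM in control livers (0.28, adjusted p = 0.114), and Psme1 93.6, 85.1, 97.3 and 98.7 CPM in furan livers, against 95.0, 96.0, 104 and 88.4 CPM in control livers (-0.03, adjusted p = 0.887). The groups overlapped for both.

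The 6 ATPases all had values above 0 in FFPE 18 h livers (median 0.13, highest 0.23 for Psmc4) and 9 of the 11 other cap subunits did (median 0.06), but no gene of either group passed. Psmd14, Psmd7, Psmd8 and the 20S chaperone Psmg4 lay wholly above the control range, with log2 fold changes of 0.33 (adjusted p = 0.0783), 0.21 (0.108 as adjusted p), 0.18 (0.15) and 0.31 (0.0876). With Psmd5 that made 5 genes wholly above and, with Psmb9, 1 wholly below, where 7.37% and 8.07% of all genes did. The alpha ring had 6 of 8 values above 0 (median 0.11), and the structural beta genes stayed between -0.06 and 0.02.

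**Figure D3:**
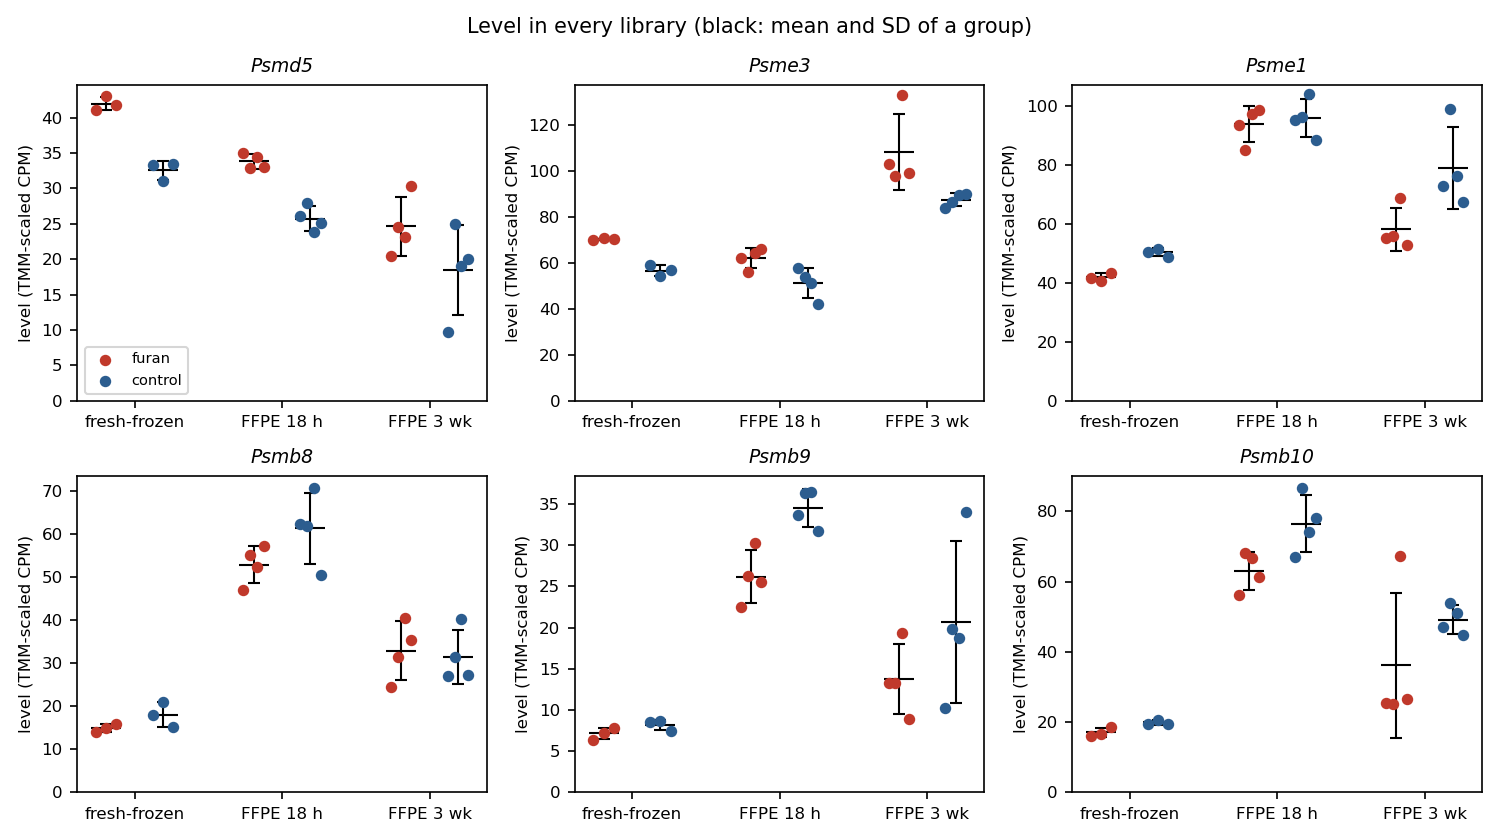
Level (TMM-scaled CPM) of Psmd5, Psme3, Psme1, Psmb8, Psmb9 and Psmb10 in every library, furan (red) left of control (blue) in each kind of piece; black lines are the mean and SD. Psmd5 separates in fresh-frozen and FFPE 18 h pieces, and the 3 immunoproteasome genes stand higher in FFPE 18 h than in fresh-frozen pieces in both treatments.

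In FFPE 3 wk livers 0 of 47 tested proteasome genes passed with edgeR and 0 with DESeq2, where edgeR called 0.821% of 12064 genes (0.298% rose and 0.522% fell). At an unadjusted p under 0.05 there were 4, against 10.9% of all genes, and 20 values were above 0 (51.4% of all genes). The median standard error of the proteasome genes was 0.25 on the log2 scale, against 0.08 in fresh-frozen and 0.10 in FFPE 18 h pieces. Psmd5 had 20.5, 24.5, 23.2 and 30.4 CPM in furan livers, against 9.70, 25, 19.1 and 20 CPM in control livers, a log2 fold change of 0.46 ± 0.32 (adjusted p = 0.689). A change of the size seen in fresh-frozen livers was therefore not detectable for Psmd5 at this spread. Psme3 had 103, 97.6, 133 and 99.2 CPM in furan livers, against 84.0, 86.5, 89.6 and 90 CPM in control livers. It and Psme4 were the 2 genes whose furan values were all above the control values, with log2 fold changes of 0.35 (adjusted p = 0.408) and 0.41 (adjusted p = 0.310); 3.86% of all genes were. Psme2b alone lay wholly below (-0.65, adjusted p = 0.509), as did 4.95% of all genes.

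Psme1 had 55.2, 55.7, 68.6 and 52.8 CPM in FFPE 3 wk furan livers, against 72.9, 99.0, 76.2 and 67.3 CPM in control livers (log2 fold change -0.40, adjusted p = 0.436). Psmb9 had 13.3, 13.3, 19.3 and 8.97 CPM in furan livers, against 10.2, 19.8, 18.7 and 34.0 CPM in control livers (-0.55, adjusted p = 0.704), and Psmb10 25.5, 25.3, 67.2 and 26.6 CPM in furan livers, against 47.1, 53.8, 51.1 and 44.7 CPM in control livers (-0.42, adjusted p = 0.699). The groups overlapped for all 3 genes, and for Psme1 and Psmb10 through furan animal 43 alone. Psmb8 had 24.4, 31.5, 40.6 and 35.4 CPM in furan livers, against 27.0, 31.4, 40.3 and 27.3 CPM in control livers (0.11, adjusted p = 0.960). The constitutive genes had log2 fold changes of -0.05 for Psmb5, 0.17 for Psmb6 and -0.28 for Psmb7. Psmb5 rested on 219 counts over the 4 furan and 186 over the 4 control libraries. Without the 3 libraries that held skeletal muscle transcripts, 0 of 48 genes passed.

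The response to furan was then compared between kinds of piece by an interaction of treatment and preservation. With edgeR or DESeq2, 0 of 49 proteasome genes passed between FFPE 18 h and fresh-frozen pieces and 0 of 48 between FFPE 3 wk and fresh-frozen pieces. At an unadjusted p under 0.05 there were 0 and 2. Over all genes edgeR called 0% in both, and 3.31% and 4.48% had an unadjusted p under 0.05. For Psmd5 the difference in log2 fold change, FFPE minus fresh-frozen, was 0.03 ± 0.11 at 18 h and 0.09 ± 0.34 at 3 wk. For Psmb9 it was -0.20 ± 0.15 and -0.35 ± 0.50, and for Psme3 -0.03 ± 0.13 and 0.04 ± 0.17. For Psme1, which in the main fits passed in fresh-frozen pieces alone, it was 0.23 ± 0.11 at 18 h (unadjusted p = 0.0522, adjusted p = 1) and -0.14 ± 0.21 at 3 wk. The calls that differ between kinds of piece are thus not shown to be different responses. As the test called no gene of any kind, the responses are not shown to be equal either.

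The balance of immunoproteasome over constitutive genes was described as a ratio of levels within each library. Psmb9 over Psmb6 was 0.141, 0.172 and 0.171 in fresh-frozen furan livers, against 0.198, 0.210 and 0.194 in control livers, and 0.134, 0.154, 0.185 and 0.149 in FFPE 18 h furan livers, against 0.199, 0.219, 0.222 and 0.224 in control livers. The furan values were lower in every case. Psmb8 over Psmb5 was 1.28, 1.36 and 1.47 in fresh-frozen furan livers, against 1.64, 1.99 and 1.75 in control livers, and 1.96, 2.69, 2.25 and 2.53 in FFPE 18 h furan livers, against 3.31, 2.92, 3.57 and 2.70 in control livers. Again the groups did not overlap, at 18 h by 2.69 against 2.70. The level of Psmb5 is uncertain, as given earlier. Psmb5 and Psmb6 themselves had log2 fold changes above 0 with furan in both kinds of piece. How often ratios of other genes separate was not counted. Psmb10 over Psmb7 overlapped in both, with 0.235, 0.235 and 0.273 in fresh-frozen furan livers, against 0.242, 0.282 and 0.261 in control livers. In FFPE 3 wk livers both of the first ratios overlapped: Psmb9 over Psmb6 was 0.188, 0.138, 0.247 and 0.126 in furan livers, against 0.173, 0.250, 0.213 and 0.537 in control livers. The pieces come from the same animals, so FFPE values do not repeat the fresh-frozen ones independently, and the ratios were chosen with the levels known and were given no test.

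Genes that work with the proteasome were counted from fixed lists. Of 30 regulators, partners and ubiquitin genes, 4 rose and 1 fell in fresh-frozen furan livers, 16.7%, near the 15.7% of all genes called there. Nfe2l2, which encodes NRF2, had 125, 106 and 102 CPM in furan livers, against 73.6, 73.8 and 73.7 CPM in control livers, and all furan values were higher (log2 fold change 0.61 ± 0.08, adjusted p = 0.00449). Nfe2l1, which encodes NRF1, did not pass (-0.13, adjusted p = 0.404), nor did Pomp, the chaperone of 20S maturation (-0.15, adjusted p = 0.279). Ubqln1, which shuttles ubiquitinated proteins to the proteasome, had 212, 215 and 205 CPM in furan livers, against 177, 156 and 150 CPM in control livers (0.41 ± 0.08, adjusted p = 0.0158). Zfand2a, a proteasome-associated protein induced by arsenite, rose by 0.41 (adjusted p = 0.0256) and Ubqln4 by 0.26 (adjusted p = 0.0379), and Ubqln2 fell by 0.29 (adjusted p = 0.0345). These last 3 calls were lost in 6, 7 and 8 of 12 alternative fits, and that of Ubqln1 without furan animal 43 or control animal 04 (adjusted p = 0.0526 and 0.0505). In 1 model of all 6 groups the adjusted p was 0.295 for Nfe2l2 and 0.0632 for Ubqln1.

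In FFPE 18 h livers 3 of the 30 rose and 0 fell, 10%, near the 8.39% of all genes called there. The 3 were Ubqln1 (0.34 ± 0.07, adjusted p = 0.00925), Ube2k, a ubiquitin-conjugating enzyme (0.37, adjusted p = 0.0388), and Rad23b, another shuttle (0.24, adjusted p = 0.0470). Ube2k and Rad23b lost their calls in 9 and 12 of 14 alternative fits, and Ubqln1 with total counts (adjusted p = 0.263) and in 1 model of all 6 groups (0.0562). Nfe2l2 had a log2 fold change of 0.08 there (adjusted p = 0.788). In FFPE 3 wk livers 0 of 29 tested genes passed. Of 8 genes of antigen processing, 2 fell in fresh-frozen furan livers and 0 rose, where 7.47% of all genes fell and 15.7% were called. Tapbp, which encodes the peptide-loading chaperone tapasin, had 93.4, 98.1 and 96.7 CPM in furan livers, against 127, 127 and 118 CPM in control livers (-0.35 ± 0.06, adjusted p = 0.0118). B2m, the light chain of MHC class I, had 631, 632 and 636 CPM in furan livers, against 899, 909 and 793 CPM in control livers (-0.43 ± 0.08, adjusted p = 0.0132; 0.0558 without furan animal 43). For both genes all furan values were lower, and in 1 model of all 6 groups the adjusted p of Tapbp was 0.136. In FFPE 18 h livers Nlrc5, the transactivator of class I and immunoproteasome genes, fell, with 23.2, 30.5, 27.6 and 26 CPM in furan livers, against 36.5, 43.5, 49.5 and 48.9 CPM in control livers (-0.72 ± 0.12, adjusted p = 0.00266). That call was lost with total counts (0.0927 as adjusted p) and in 1 model of all 6 groups (0.453). In both kinds of piece 7 of the 8 values were below 0, with a median of -0.21 in fresh-frozen and -0.18 in FFPE 18 h livers, where 48.5% and 48.1% of all genes were above 0. In FFPE 18 h livers 1 of the 8 fell, where 4.47% of all genes did. Of the 4 endothelial genes, Stab2 and Kdr fell in fresh-frozen furan livers (-0.57 and -0.34) and Stab2 in FFPE 18 h furan livers (-0.59); their part in these results was not tested.

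Between kinds of piece most proteasome genes differed, and most were higher after fixation. In furan animals 39 of 48 tested genes rose and 4 fell in FFPE 18 h against fresh-frozen pieces, 89.6% in all, where 73% of 13411 genes were called (36.8% rose and 36.2% fell). The median log2 fold change was 0.80, against 0.02 for all genes, and 23 genes were over 1 in absolute value. In control animals 39 of 49 rose and 5 fell, 89.8%, where 68% of 13034 genes were called (34.2% rose and 33.8% fell). The median there was 0.83, and 24 genes were over 1 in absolute value. In both treatments these genes include Psma3 and Psmd2, which fell. The summed level was 3686, 3579, 3678 and 3695 CPM in FFPE 18 h furan pieces and 3689, 3688, 3530 and 3390 CPM in FFPE 18 h control pieces, all above the fresh-frozen values given earlier. The fixed pieces also differed from the frozen ones in extraction kit, and effects of fixation, kit and RNA integrity (integrity numbers above 8.9 for frozen and 1.3 to 2.4 for FFPE RNA, per the labels) cannot be told apart.

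The rises were unequal between roles, and the roles also differ in transcript length. The 20S chaperones span 555 to 1059 nt, the tested immunoproteasome genes 1311 to 1628 nt and the ATPases 1316 to 2234 nt. The part of length in the differences between roles was not tested. In furan animals the immunoproteasome genes (3 of 3 rose, median 1.98), the 20S chaperones (4 of 4, 1.89), the structural beta genes (4 of 4, 1.88) and the constitutive catalytic genes (3 of 3, 1.14) had the highest medians. The alpha ring had a median of 0.93, the ATPases of 0.44 (5 of 6 rose) and the other cap subunits of 0.45 (8 rose and 1 fell of 11). In control animals the same 7 medians, in that order, were 2.06, 1.73, 1.83, 1.09, 0.76, 0.41 and 0.46. Psmg4, a 20S chaperone, had the largest rise in both. In furan animals it averaged 25 CPM in FFPE 18 h and 2.00 CPM in fresh-frozen pieces (log2 fold change 3.74 ± 0.12), and in control animals 20.3 and 1.85 CPM (3.57 ± 0.16). The next largest in furan animals were Psmg3, another 20S chaperone (28.1 and 6.62 CPM, 2.18 ± 0.12), Psma5 of the alpha ring (19.9 and 5.07 CPM, 2.08) and Psmb2 of the beta ring (93.8 and 24 CPM, 2.06 ± 0.09). In control animals they were Psmb9 (34.6 and 8.21 CPM, 2.19 ± 0.11), Psma5 (21.1 and 5.17 CPM, 2.15 ± 0.11) and Psmb6 (160 and 40.9 CPM, 2.09 ± 0.10). For each of these genes every FFPE 18 h library was above every fresh-frozen one of the same treatment, as for 32.5% of all genes in furan and 30.2% in control animals. Of the 50-nt words of Psma5 55.4% occur in other genes, as do 22.7% of those of Psmg3, so their counts are uncertain.

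The genes that fell included Psma3 of the alpha ring, which averaged 4.81 CPM in FFPE 18 h and 15.6 CPM in fresh-frozen pieces of furan animals (log2 fold change -1.59), and 4.38 and 15.0 CPM in control animals (-1.66 ± 0.19). Psmd2, a scaffold of the cap, averaged 76.5 and 182 CPM in furan animals (-1.15) and 78.9 and 174 CPM in control animals (-1.03 ± 0.08). Psma3 shares 22% of its 50-nt words with other genes and Psmd2 shares 26.1%, so their counts are uncertain too. Psme4 averaged 124 and 192 CPM in furan animals (-0.53) and 113 and 195 CPM in control animals (-0.68 ± 0.07). Psmd5 fell in furan animals (33.8 and 42 CPM, -0.21 ± 0.07, adjusted p = 0.0169), a call lost with libraries thinned to equal depth (0.430 as adjusted p), in 1 model of all 6 groups (0.318) or without fresh-frozen furan animal 43 (0.0597). Psmc6, an ATPase, fell in control animals (47.9 and 64.8 CPM, -0.32 ± 0.10, adjusted p = 0.0153), a call lost when thinned (0.0970) or without fresh-frozen control animal 02 (0.0675).

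After 3 wk in formalin the shift went both ways. In furan animals 19 of 48 genes rose and 13 fell against fresh-frozen pieces, 66.7%, where 45.3% of 12599 genes were called (22.4% rose and 22.9% fell), with a median log2 fold change of 0.09. In control animals 15 of 47 rose and 7 fell, 46.8%, where 26.2% of 12145 genes were called (13.2% rose and 13% fell), with a median of 0.29. The count in furan animals was 21 without fresh-frozen furan animal 43, and that in control animals 11 without any 1 of the 3 fresh-frozen control libraries. The immunoproteasome genes again rose (3 of 3 in each treatment, median 1.12 in furan and 1.37 in control animals), and of the ATPases 0 rose and 3 fell in furan animals (-0.39), and 0 rose and 2 fell in control animals (-0.48).

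In furan animals the largest called rises after 3 wk were those of Psmg4 (14.6 CPM in FFPE 3 wk and 2.00 CPM in fresh-frozen pieces, 2.93 ± 0.28), Psmb2 (93.6 and 24 CPM, 2.02 ± 0.17), Psmg2 (16.3 and 6.44 CPM, 1.41 ± 0.21) and Psmg3 (16.4 and 6.62 CPM, 1.4 ± 0.24); all but Psmb2 are chaperones of 20S assembly. Among called genes of control animals they were those of Psmb2 (100 and 25.7 CPM, 2.02 ± 0.19), Psma5 (16.6 and 5.17 CPM, 1.73 ± 0.50, adjusted p = 0.0333), Psmb9 (1.39 ± 0.41, adjusted p = 0.0345) and Psmb10 (49.2 and 19.9 CPM, 1.37 ± 0.18). With the animal as a block the adjusted p was 0.0560 for Psma5 and 0.114 for Psmb9, and both calls were also lost without FFPE 3 wk control animal 04 or any 1 fresh-frozen control library. Psmg4 had a larger value in control animals (8.45 and 1.85 CPM, 2.26 ± 0.83) that did not pass (adjusted p = 0.0766). Without the libraries with skeletal muscle transcripts the Psmb9 value was 0.87 (adjusted p = 0.0621).

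Of the genes that fell after 3 wk, Psma3 averaged 3.96 and 15.6 CPM in furan animals (-1.91 ± 0.29) and 1.85 and 15.0 CPM in control animals (-2.92 ± 0.84, adjusted p = 0.0313; 0.0562 to 0.113 without FFPE 3 wk control animal 02 or 04 or any 1 fresh-frozen control library). Psmd2 averaged 61.3 and 182 CPM in furan animals (-1.50 ± 0.11) and 81.8 and 174 CPM in control animals (-1.03 ± 0.24). Psme4 averaged 94.5 and 192 CPM in furan animals (-0.95 ± 0.11) and 73.7 and 195 CPM in control animals (-1.34 ± 0.12). Psmb5 fell in furan animals (5.94 and 11.0 CPM, -0.82 ± 0.26, adjusted p = 0.0240), where the call was lost with the animal as a block (0.0958), when thinned (0.127), in 1 model of all groups (0.0647) and without any 1 fresh-frozen furan library (0.0914 to 0.0981). Psmc3, an ATPase, fell in control animals (46.0 and 87.8 CPM, -0.87 ± 0.20, adjusted p = 0.0126; 0.0611 without fresh-frozen control animal 02).

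The shift went with transcript length, and also with the share of G and C bases (GC content), as it did over all genes. Lengths came from the longest curated transcript in GENCODE M21, which was matched for all 50 proteasome genes. Spearman's rho between length and the FFPE 18 h log2 fold change was -0.65 over 48 proteasome genes in furan animals and -0.61 over 49 in control animals, against -0.60 and -0.59 over all genes. Genes of 1 library share its depth and RNA, so these are descriptions. After 3 wk rho was -0.41 in furan and -0.46 in control animals, against -0.43 in each over all genes. For GC content, rho at 18 h was 0.43 in furan and 0.44 in control animals, against 0.26 and 0.28 over all genes. After 3 wk rho for GC content was 0.26 and 0.33, against 0.08 and 0.17 over all genes. The separate parts of length and GC content were not tested. At 18 h, 16 of the 16 proteasome genes under 1200 nt rose in both treatments, with a median of 1.34 in furan and 1.42 in control animals, where 86.8% and 86.6% of all genes that short rose, with medians of 1.98 and 1.96. From 1200 to 1600 nt 13 of 13 rose in furan and 13 of 14 in control animals, where 78.1% and 74.2% of all genes of that length rose. From 1600 to 2500 nt 5 of 9 rose in each, where 53.9% and 48.4% of all genes did. At 2500 nt and above 5 rose and 4 fell of 10 in each, where 17% of all genes rose and 52.1% fell in furan animals and 15.5% rose and 48.1% fell in control animals. The medians of those long proteasome genes were 0.14 in furan and 0.21 in control animals, against -0.41 and -0.38 for all genes. The differences from all genes were not tested. Psmg4, at 555 nt, had the shortest tested transcript and the largest rise, and Psme4, at 6491 nt, the longest transcript and a fall. Of the other genes named for a fall in both treatments, Psma3 is listed at 2846 nt and Psmd2 at 3001 nt.

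**Figure D4:**
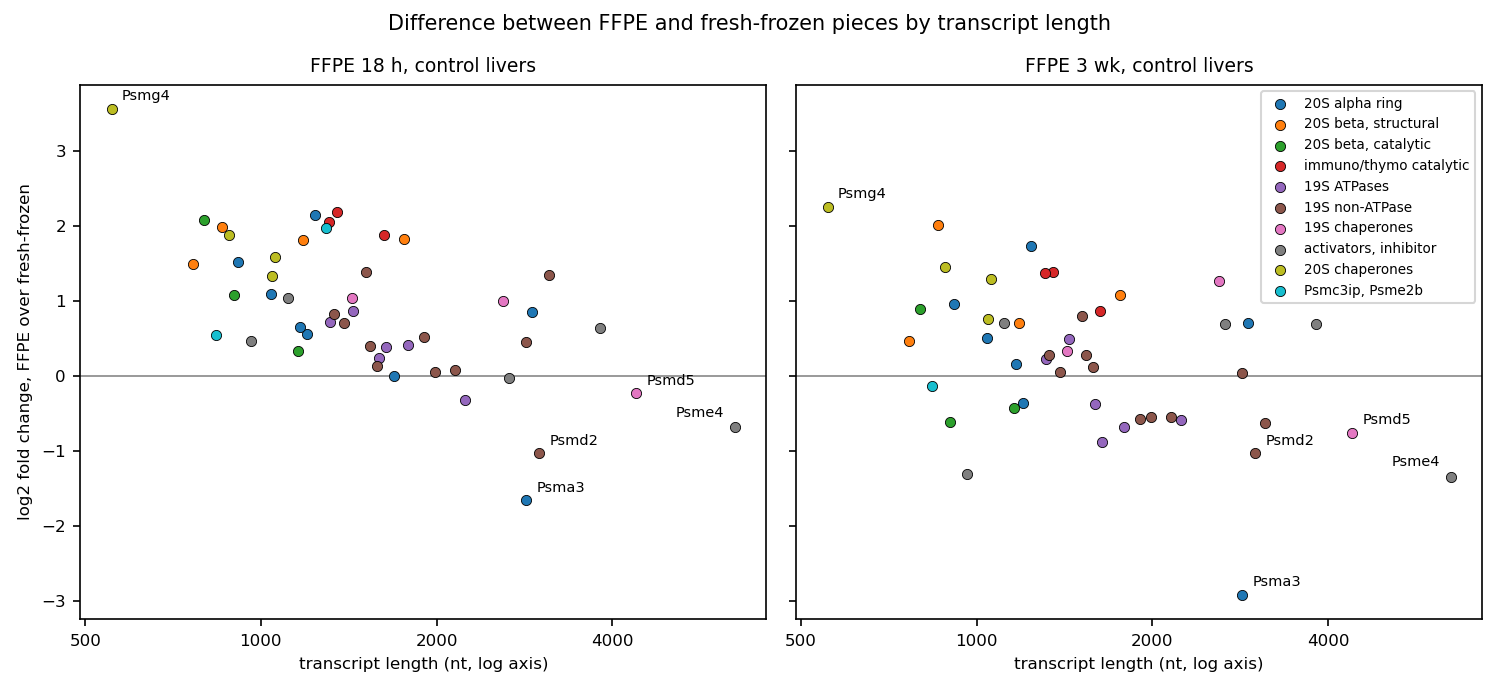
Log2 fold change of FFPE over fresh-frozen pieces in control animals against transcript length (nt, log axis), 1 point per tested proteasome gene, coloured by role. Short transcripts tend to lie higher than long ones, with Psmg4 (555 nt) at the top left and Psme4 (6491 nt) at the right. Long ones went both ways: at 18 h, of the 10 genes at 2500 nt and above, 5 rose and 4 fell.

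Furan and control animals, which share no library in these comparisons, gave nearly the same shift. At 18 h Pearson's r between their log2 fold changes was 0.993 over 48 proteasome genes and 0.967 over all genes, all 48 had the same sign, and 38 rose and 4 fell in both. At 3 wk r was 0.938 over 47 genes and 0.790 over all genes, with the same sign in 40, and 14 rose and 7 fell in both. Both treatments share the protocol of each kind of piece, which such a correlation also holds. The genes were also counted by shared sequence, with no test of the difference. At 18 h in furan animals 20 rose and 1 fell of the 25 genes with no 50-nt word in another gene (median 0.76), and in control animals 19 rose and 2 fell (0.72). Of the tested genes with at least 1 such word, 19 rose and 3 fell of 23 in furan animals (1.06) and 20 rose and 3 fell of 24 in control animals (0.93). At 3 wk the medians had opposite signs in furan animals, with 10 that rose and 5 that fell of 25 without such words (0.37) and 9 and 8 of 23 with them (-0.13). In control animals 8 rose and 4 fell of 24 without them (0.41), and 7 and 3 of 23 with them (0.17).

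**Figure D5:**
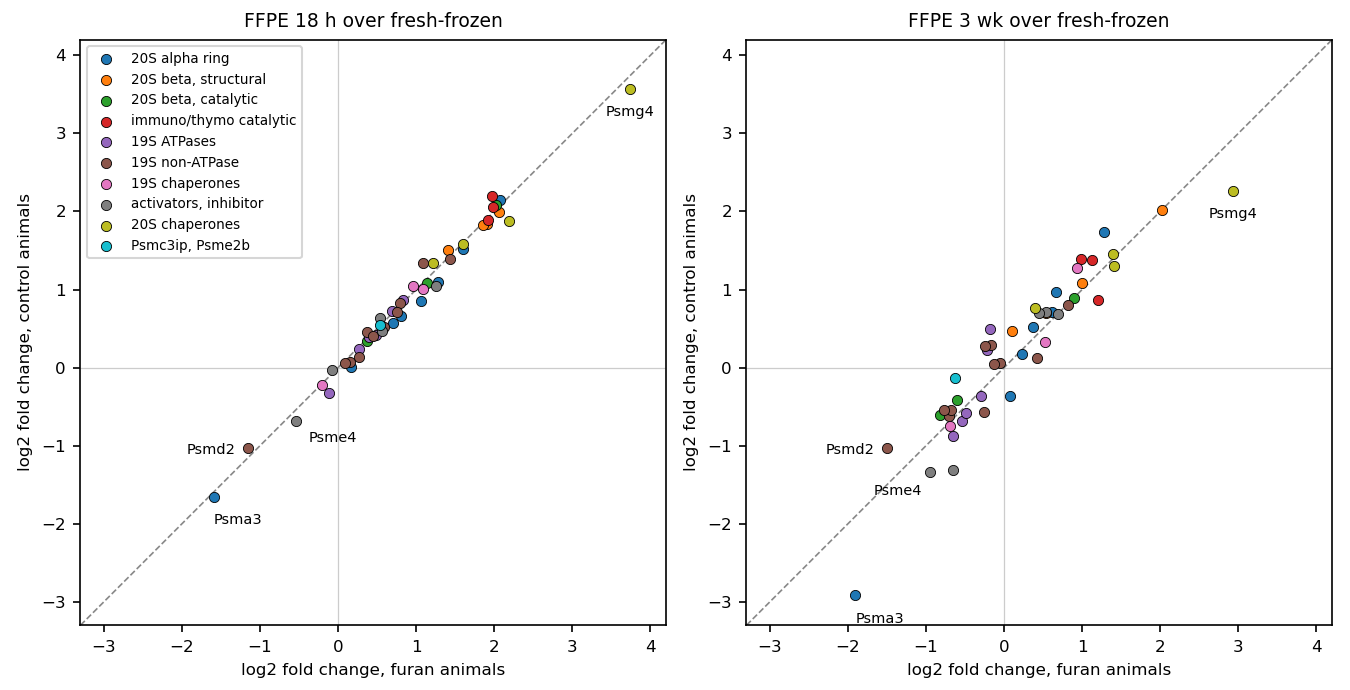
Log2 fold change of FFPE over fresh-frozen pieces in control animals (vertical) against furan animals (horizontal), 1 point per proteasome gene, with the line of equality dashed. Points lie along the line at 18 h (r 0.993) and scatter more at 3 wk (r 0.938), where Psma3 is lower in control animals.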

How the data were processed

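Poly(A) RNA was sequenced from livers of furan and control mice. Per the labels' protocols, about 100 mg of each frozen piece was extracted, or 1 (18 h) or 2 (3 wk) FFPE sections of 10 micrometres with another kit. The authors deposited raw integer counts per gene, made per the submitters' processing notes with CASAVA 1.8.2, STAR 2.3.0, featureCounts 1.4.4 and build mm9; strand and multi-read settings are not given in the sources used here. Of 24 columns, 22 matched a labelled sample, and 2 were not used here. The printed errors cover the spread between animals.

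Each comparison was fitted on the libraries of its groups with edgeR 4.0.16 in R 4.3.3 (filterByExpr, TMM, quasi-likelihood F test, Benjamini-Hochberg over all tested genes, threshold 0.05), and interactions on 4 groups. Standard errors were derived from each log2 fold change and its F. The fits were tested on simulated data. The alternatives were DESeq2 1.42.0, RLE or total-count scaling, no filter, thinning to 3666173 counts, 1 model of 6 groups, each library left out and the animal as a block. Further fits, added once the data had been seen, left out the shallowest FFPE 3 wk library of each group, or those with skeletal muscle transcripts. Pieces of 1 liver share an animal number: after group means were removed, FFPE 18 h and fresh-frozen pieces of 1 animal correlated at 0.407 to 0.515 and FFPE 3 wk pieces at 0.0877 to 0.273, and all 6 of each were most like their own animal. No replicate pair agreed within sampling noise (lowest chi-square per degree of freedom 9.36).

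Genes named were the catalytic genes, those past adjusted p 0.05 with furan (members and pathway lists), and the 4 largest called rises and falls with preservation; other genes printed were chosen after their values were seen. The genes, lists and rules were chosen with earlier results of these data known. Transcript lengths were matched for 23365 of 24015 genes (97.3%), and promoters are RefSeq's.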

Additional observations from a re-analysis of the deposited data

Results flagged for a closer look

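Among 40 groups of 4 libraries (catalytic and called genes and the summed level), 5 held a library whose gap to the nearest value, over the group's range, was above Dixon's 95% critical value, where chance gives about 1 in 20. In FFPE 3 wk furan livers animal 43, the shallowest of its group, stood apart in Psmb10, at 67.2 CPM against 25.3 to 26.6 CPM in the others, in Psme3, at 133 CPM against 97.6 to 103 CPM, and in the summed level of the proteasome genes, at 2720 CPM against 2040 to 2090 CPM. The FFPE 18 h library of furan animal 42 had a summed level of 3580 CPM, against 3680 to 3700 CPM in the others. The FFPE 18 h library of control animal 06, which held the highest share of Rn45s, had 142 CPM of Psmb6, against 164 to 169 CPM in the others.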

How the results depend on the processing

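The fresh-frozen furan count of 3 genes became 5 with total counts and 0 in 1 model of all groups. The FFPE 18 h count of 2 became 0 with total counts (which moved the median of all genes to 0.10) and in 1 model, and 1 when thinned; the FFPE 3 wk count of 0 became 5 in 1 model. The causes were not tested. With 1 library left out, the counts were 2 to 3 in fresh-frozen, 1 to 2 in FFPE 18 h and 0 in FFPE 3 wk livers, 42 to 43 and 21 to 33 for FFPE 18 h and 3 wk against fresh-frozen in furan animals, 40 to 44 and 11 to 30 in control animals, and 0 for both interactions. Total counts moved the median of all genes to -0.22 and -0.27 in the FFPE 18 h comparisons of furan and control animals, where 38 and 30 genes still passed. With the animal as a replicate block, 44 (18 h) and 30 (3 wk) genes passed in furan animals, 44 and 15 in control animals, and 0 in both interactions; calls of named genes that the block ended are given in the report. Without the shallowest FFPE 3 wk library of each group 0 genes passed with furan, and 33 and 23 against fresh-frozen in furan and control animals; without the libraries with muscle transcripts these were 0, 31 and 31.

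Of 996 refits of named genes 876 kept direction and side of the threshold, 108 lost the call, 1 gained it (Psme1 in FFPE 3 wk furan livers, adjusted p = 0.0142) and 11 reversed. The log2 fold change of Psmb9 in fresh-frozen livers was 0.12 when thinned. That of Psme1 in FFPE 18 h livers was 0.077 with total counts, 0.023 when thinned, and between -0.069 and 0.028 with 1 library left out (0.028 without control animal 04, 0.018 without furan animal 42). In FFPE 3 wk livers that of Psmb5 was between -0.31 and 0.55 with 1 library left out (0.55 without control animal 02, 0.038 without control animal 03, 0.09 without furan animal 42) and 0.50 without the shallowest libraries, and that of Psmb8 was between -0.0005 (without furan animal 43) and 0.25 with 1 library left out and -0.043 without the shallowest libraries. The fresh-frozen call of Psmd5 held in 11 of 12 fits (0.916 as adjusted p in 1 model), of Psme3 in 10 (0.0637 thinned, 0.416 in 1 model) and of Psme1 in 3. The FFPE 18 h call of Psmd5 held in 11 of 14 (0.182 with total counts, 0.141 thinned, 0.498 in 1 model) and of Psmb9 in 5. FFPE 3 wk libraries had the fewest counts, and the part of depth in their values was not tested.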

Other observations

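The genes whose level was most like that of Psmb8 over the 22 libraries, after group means were removed, were Ly6e (Pearson's r 0.895), Sdf2l1 (0.879), C1qa (0.848), Tgm2 (0.843) and Tmsb4x (0.831), out of 9238 genes searched. Ly6e encodes an interferon-induced surface protein and C1qa a complement subunit made by macrophages. The libraries share animals and preservation, so these are descriptions.

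Acta1, the skeletal muscle actin, also stood at 16.2 CPM in the FFPE 18 h library of furan animal 44, against at most 1.28 CPM in the other FFPE 18 h libraries and at most 0.0854 CPM in fresh-frozen libraries. In the 3 FFPE 3 wk libraries with Acta1, the muscle creatine kinase gene Ckm had 44.6 CPM in furan animal 42, and 19.5 and 20.5 CPM in control animals 03 and 06. Hba-a1 was listed at 0 in every library.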
